A study of Mus musculus with 12 samples.

Results

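Transcripts of 10 dual-specificity phosphatases that can act on mitogen-activated protein kinases (MAPKs) were followed in the prefrontal cortex (PFC) of mice after repeated cocaine: Dusp1, Dusp3, Dusp4, Dusp5, Dusp6, Dusp7, Dusp8, Dusp10, Dusp14 and Dusp16. They were chosen by gene name and are 10 of 39926 gene names listed in the deposited tables. Adult male C57BL/6 mice (C57BL/6 J in the study's methods) aged 10 weeks received intraperitoneal cocaine (20 mg/kg per day) or saline for 14 days, and the tissue was taken 2 h, 24 h or 7 d after the last dose. The saline animals of each time point are called the control, and no animal carried a transgene or deletion. The design had 6 groups with 2 libraries in each (12 libraries, 60 mice), and every library held polyA RNA pooled from 5 animals.

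Each table gives 1 FPKM per group (fragment counts scaled by transcript length and library size), which the authors pooled over both libraries. The tables give no values per library, no depth and no SD for these FPKM values, and the authors' own test columns were not used, so that no difference below was tested. A feature was instead counted as higher or lower where its cocaine FPKM was at least 1.5-fold above or below the control FPKM of the same table, among features with a mean FPKM of at least 1. The 3 tables were normalized separately, and levels set side by side across time points carry that limit. All 10 phosphatases passed the minimum at all 3 time points. Column headers did not name saline plainly. The first FPKM column was taken as control, and this choice was checked against the order of values in the study's supplementary tables.

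MAPKs of the ERK, JNK and p38 families are switched on by phosphate groups on a threonine and a tyrosine of the activation loop, and dual-specificity phosphatases remove both. Several of these phosphatases are themselves transcribed after ERK signaling or neuronal activity, which makes them feedback brakes as well as markers of recent signaling. Family members differ in where they work and in which kinases they prefer: Dusp1, Dusp4 and Dusp5 reside in the nucleus, Dusp6 and Dusp7 act on ERK in the cytoplasm, Dusp8, Dusp10 and Dusp16 prefer JNK and p38, and Dusp3 and Dusp14 are small atypical enzymes without the kinase-docking domain.

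The 250 bases before the start site are shown for Dusp1, Dusp5 and Dusp6, which were among the members with the largest cocaine ratios and differ in the activity-linked motifs these bases hold. The sequences are those of RefSeq on GRCm38.p6, printed 5′ to 3′ on the strand of the gene, and capitals mark motif matches. The Dusp1 window (chr17:26508473-26508722, minus strand) holds a cAMP response element (CRE, TGACGTCA), a separate CRE core (TGACG) and an E-box (CACGTG). The Dusp5 window (chr19:53528895-53529144, plus strand) holds a pair of adjoining CArG boxes, the motif of serum response factor, and a CRE core on the other strand. The Dusp6 window (chr10:99262981-99263230, plus strand) holds no match to any motif searched.
Dusp1: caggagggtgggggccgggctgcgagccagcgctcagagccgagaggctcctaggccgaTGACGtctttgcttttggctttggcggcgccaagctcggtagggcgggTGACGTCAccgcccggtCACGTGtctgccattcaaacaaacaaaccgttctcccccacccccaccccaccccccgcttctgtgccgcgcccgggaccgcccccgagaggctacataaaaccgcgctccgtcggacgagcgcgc
Dusp5: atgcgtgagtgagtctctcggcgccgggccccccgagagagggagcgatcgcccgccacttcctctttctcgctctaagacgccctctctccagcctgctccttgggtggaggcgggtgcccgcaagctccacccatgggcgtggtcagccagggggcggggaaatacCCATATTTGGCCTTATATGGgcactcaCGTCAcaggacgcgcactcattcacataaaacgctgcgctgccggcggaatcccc
Dusp6: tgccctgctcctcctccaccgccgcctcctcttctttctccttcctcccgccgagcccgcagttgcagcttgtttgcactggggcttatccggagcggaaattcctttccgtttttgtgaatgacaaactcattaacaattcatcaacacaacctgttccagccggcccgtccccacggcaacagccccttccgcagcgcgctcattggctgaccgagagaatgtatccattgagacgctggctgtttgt

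The largest cocaine ratios of the family were at 2 h and belonged to 4 genes: Dusp1, Dusp4, Dusp5 and Dusp6 were 2.30- to 4.14-fold higher after cocaine than after saline. The other 6 members lay between 0.905- and 1.11-fold. Of all 13576 features measured at 2 h, 2.23% were higher and 1.65% lower by the same rule, against 4 and 0 of the 10 phosphatases. The median log2 ratio was 0.15 over the members and 0.02 over all features. In pooled cortical tissue, a higher level in each cell and a larger number of expressing cells cannot be told apart.

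Dusp1 encodes a nuclear phosphatase that acts on p38, JNK and ERK and is an early response gene in many cells. Its pooled FPKM was 5.85 in the control and 24.2 after cocaine at 2 h, followed by 11.9 and 16.7 at 24 h and by 6.14 and 10.3 at 7 d. The cocaine value was the higher at each time point, by 4.14-fold, 1.40-fold and 1.68-fold. The 2 h ratio ranked 21 of 13576 features, and the 7 d ratio ranked 122 of 13656. The control at 24 h (11.9) exceeded the cocaine value at 7 d (10.3), so the groups did not separate across the whole series. Dusp1 lies at chr17:26505583-26508519 on GRCm38.

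Dusp4, a nuclear phosphatase of ERK and JNK whose RNA is also induced by activity, had the second largest 2 h ratio of the family from a much lower level. Its FPKM was 1.48 in the control and 5.51 after cocaine at 2 h, followed by 2.74 and 3.60 at 24 h and by 1.14 and 1.44 at 7 d. The ratio was 3.73 at 2 h, with a rank of 26, and 1.32 and 1.26 at the later times, within the 1.5-fold limit. At 7 d both groups lay below the 2 h control, but the 7 d row spanned a longer locus (chr8:34805288-34821929). FPKM is scaled by length, so Dusp4 levels at 7 d carry that further limit beside the other times. At 2 h and 24 h the gene was placed at chr8:34806947-34821918. In the 24 h table a second row over the same locus carried 0.394 FPKM in the control and 0.240 after cocaine.

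Dusp5, a nuclear phosphatase with strong preference for ERK, was the one member past the 1.5-fold limit at all 3 time points. The limit is not a test. In the study's own test Dusp6 was called at all 3 time points. The study's list of changed MAPK pathway genes held Dusp5 at 2 h alone. Its FPKM was 1.78 in the control and 4.52 after cocaine at 2 h, followed by 1.93 and 3.15 at 24 h and by 1.08 and 1.67 at 7 d. The ratios of 2.54, 1.64 and 1.55 were smaller at each later time, and the later ratios were close to the limit at levels between 1.08 and 3.15 FPKM. The cocaine value at 7 d was below the control values at 2 h and 24 h. Dusp5 lies at chr19:53529109-53542431.

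Dusp6, the cytoplasmic phosphatase that binds and inactivates ERK, was the most abundant of these 4 genes. Its FPKM was 14.1 in the control and 32.6 after cocaine at 2 h, followed by 18.4 and 25.7 at 24 h and by 13.8 and 17.6 at 7 d. The ratio was 2.30 at 2 h (rank 67) and 1.40 and 1.28 at 24 h and 7 d. The cocaine value was above the control of its own table each time, although the 7 d cocaine value lay under the 24 h control. Dusp6 lies at chr10:99263231-99267488.

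**Figure D1:**
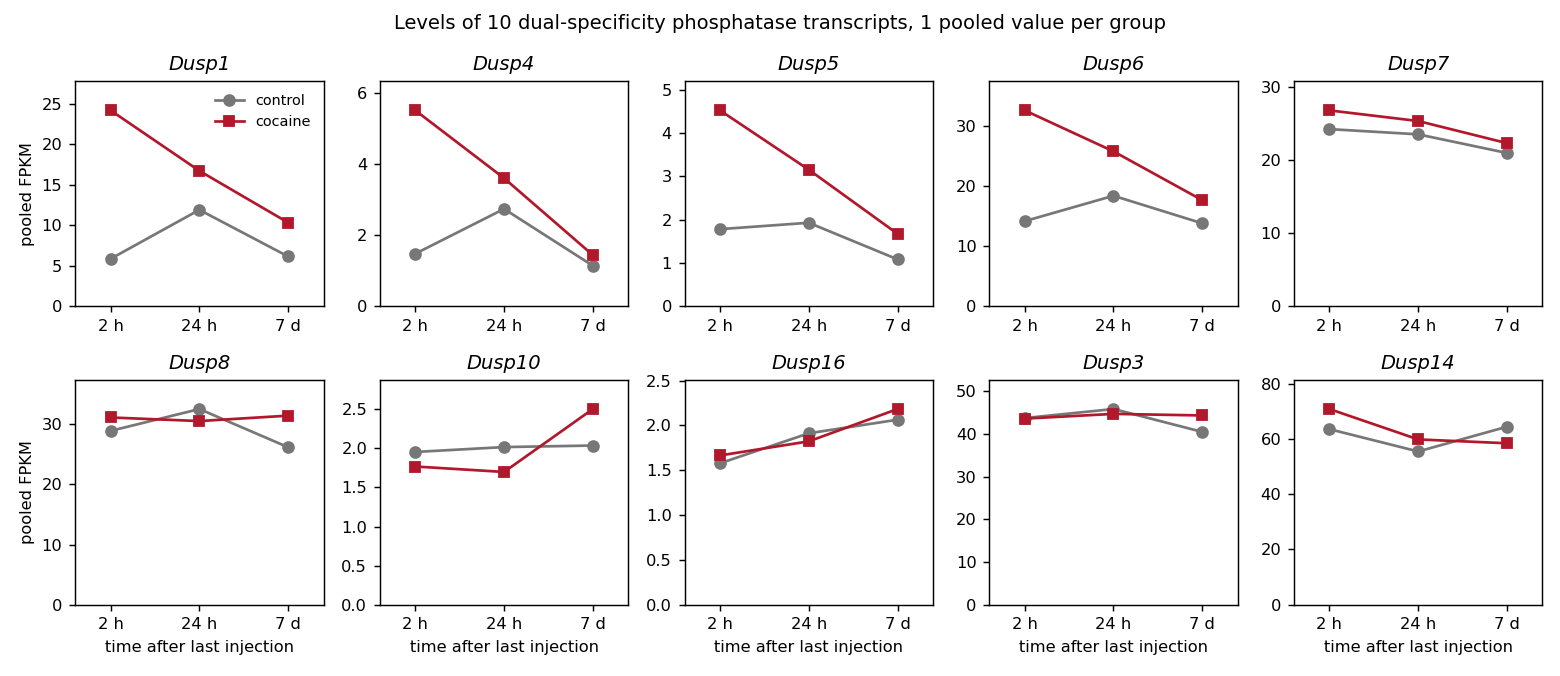
Pooled FPKM (vertical axis, from 0, scaled per gene) of each of the 10 phosphatases in control (grey circles) and cocaine (red squares) at 2 h, 24 h and 7 d after the last injection; each point is 1 pooled value without an error, and the lines only join values of separately normalized tables. Dusp1, Dusp4, Dusp5 and Dusp6 open a gap at 2 h that is narrower at 7 d, while the pairs of points of the other 6 genes stay close.

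Dusp7, the close relative of Dusp6 that also acts on cytoplasmic ERK, did not share its pattern. The FPKM of Dusp7 was 24.3 in the control and 26.8 after cocaine at 2 h, followed by 23.5 and 25.4 at 24 h and by 21.0 and 22.3 at 7 d. The ratios of 1.11, 1.08 and 1.06 were all slightly above 1. The ERK phosphatases therefore held both a gene past the limit and a gene near 1 at 2 h, and the difference between them was not tested.

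Dusp8, Dusp10 and Dusp16, which prefer JNK and p38, stayed within the limit at every time point. Dusp8, known to be abundant in brain, had 28.9 FPKM in the control and 31.1 after cocaine at 2 h, followed by 32.5 and 30.5 at 24 h and by 26.2 and 31.4 at 7 d. Dusp10 had 1.95 and 1.77 FPKM at 2 h, followed by 2.01 and 1.70 at 24 h and by 2.03 and 2.50 at 7 d. Dusp16 had 1.58 and 1.67 FPKM at 2 h, followed by 1.91 and 1.82 at 24 h and by 2.06 and 2.18 at 7 d. All 3 genes lay below the control at 24 h, with ratios of 0.939, 0.842 and 0.953, and above it at 7 d, with ratios of 1.20, 1.23 and 1.06. With 1 pooled value per group, differences of this size were not set against replicate error.

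The atypical enzymes Dusp3, which can act on ERK and JNK, and Dusp14 were the most abundant members. Dusp3 had 43.7 FPKM in the control and 43.6 after cocaine at 2 h, followed by 45.9 and 44.7 at 24 h and by 40.5 and 44.4 at 7 d. The 2 h row of Dusp3 was marked as failed by the authors' software, and its value is given with that limit. Dusp14 had 63.5 and 70.8 FPKM at 2 h, followed by 55.4 and 59.8 at 24 h and by 64.4 and 58.4 at 7 d. Over the 6 members outside the responding group, the 18 ratios ran from 0.842 to 1.23, and their control levels differed by 1.04- to 1.31-fold over the 3 tables.

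**Figure D2:**
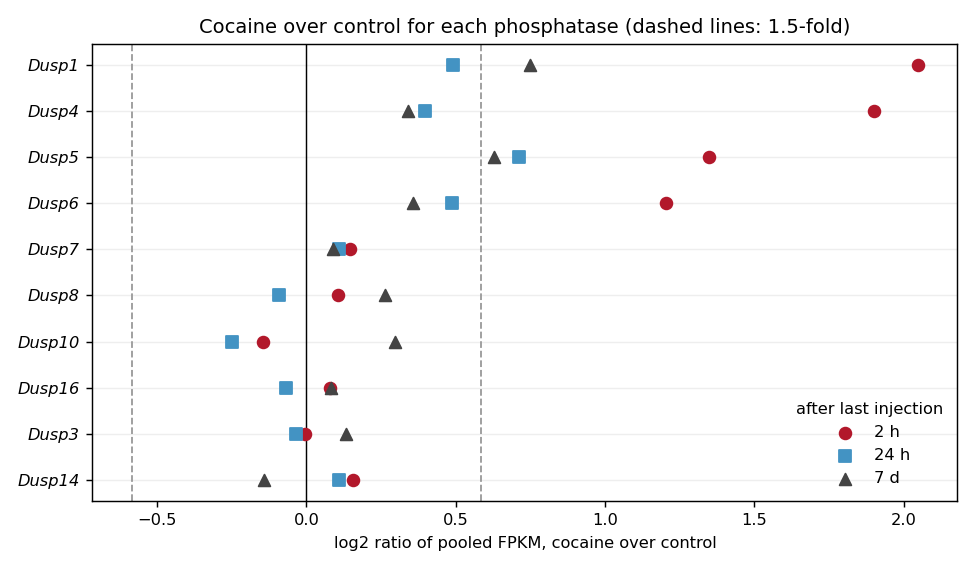
Log2 ratio of pooled FPKM, cocaine over control (horizontal axis), for each phosphatase (rows) at 2 h (red circles), 24 h (blue squares) and 7 d (dark triangles), with dashed lines at 1.5-fold; no error can be drawn for pooled values. The 2 h points of Dusp1, Dusp4, Dusp5 and Dusp6 lie between 1.20 and 2.05, and at 24 h and 7 d the points right of the dashed line belong to Dusp5 and, at 7 d, Dusp1.

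At 24 h the family was nearer to the control. Dusp5 was higher, 0 members were lower, and 6 of 10 ratios were above 1. The background at 24 h was 1.51% of 13760 features higher and 1.18% lower. The median log2 ratio of the members was 0.11, beside 0.01 over all features. Dusp1 and Dusp6 (log2 ratios of 0.49 each) and Dusp4 (0.40) were above the control but within the limit, at ranks 285, 286 and 389.

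At 7 d, 2 members were higher, Dusp1 and Dusp5, and 0 were lower. The background was 1.33% of 13656 features higher and 2.07% lower. The ratio was above 1 in 9 of 10 members, Dusp14 being the exception, whereas 47.5% of all features had a ratio above 1. The members' median log2 ratio was 0.28 and that of all features -0.01. At this time point Dusp8 (0.26), Dusp10 (0.30), Dusp4 (0.34) and Dusp6 (0.36) lay in a band below Dusp5 (0.63) and Dusp1 (0.75). By this ratio Dusp4 and Dusp6 no longer stood apart from Dusp8 and Dusp10. The median log2 ratio of genes of like transcript length was 0.07 for Dusp8 and -0.11 for Dusp14. Less that median, the values were 0.19 for Dusp8, 0.32 for Dusp10, 0.36 for Dusp4 and 0.38 for Dusp6. Dusp16 was at 0.005 and Dusp14 at -0.03 by that measure.

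**Figure D3:**
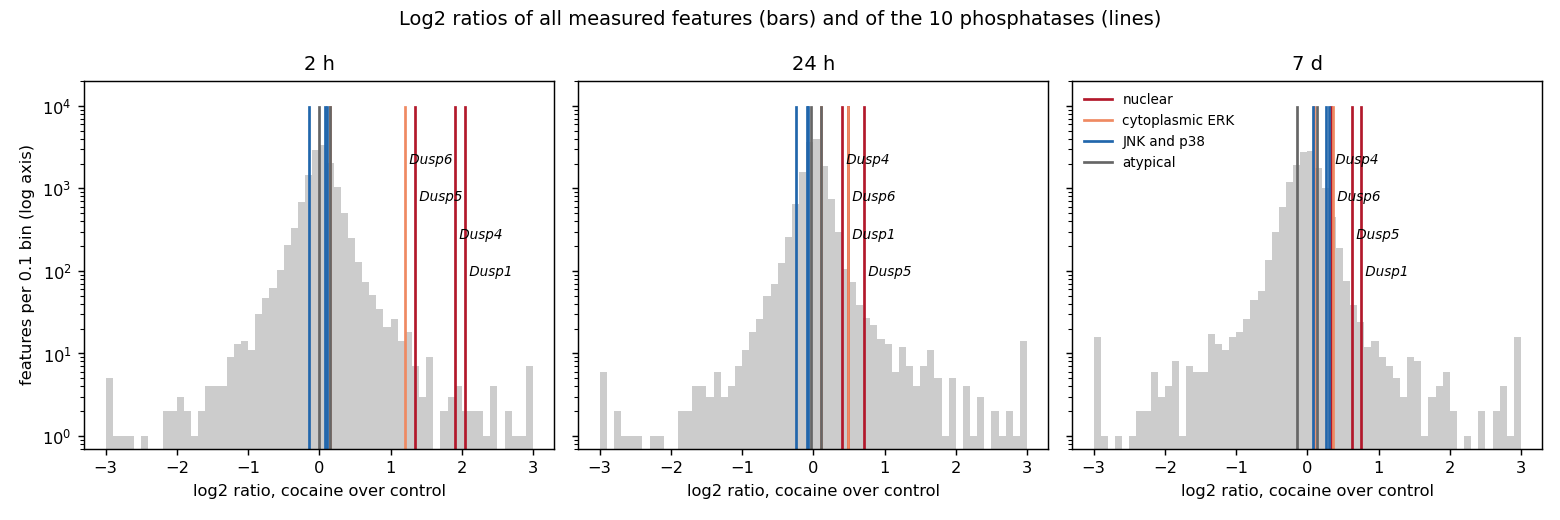
Histograms of the log2 ratio, cocaine over control, of all measured features at 2 h, 24 h and 7 d (grey bars, number of features per bin of 0.1 on a log axis, with values beyond 3 in the end bins), with a line for each of the 10 phosphatases coloured by role. At 2 h the lines of Dusp1, Dusp4, Dusp5 and Dusp6 stand in the right tail and the other 6 inside the central peak; at 7 d most lines are right of 0.

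The composition of the family's RNA shifted with these genes. Summed over the 10 members, FPKM was 187 in the control and 243 after cocaine at 2 h, followed by 196 and 213 at 24 h and by 178 and 192 at 7 d. Dusp1, Dusp4, Dusp5 and Dusp6 made up 12.4% of the control sum and 27.5% of the cocaine sum at 2 h. The 24 h shares were 17.8% and 23.1%, and the 7 d shares 12.4% and 16.2%. The sum of the other 6 members was 164 FPKM in the control and 176 after cocaine at 2 h. Both sets were formed by the 2 h ratios, so the 2 h shares and sums describe that choice. For the other 6 members the 24 h sums were 161 and 164, and the 7 d sums 156 and 161.

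In control cortex the atypical enzymes had the highest levels. The mean control FPKM over the 3 tables was 61.1 for Dusp14, 43.4 for Dusp3, 29.2 for Dusp8, 22.9 for Dusp7, 15.4 for Dusp6 and 7.97 for Dusp1. These 6 genes kept their order in all 3 tables, since the ranges of neighbours did not overlap. Dusp10 (2.00), Dusp16 (1.85), Dusp4 (1.78) and Dusp5 (1.60) followed, and the control ranges of neighbours among these 4 overlapped. FPKM is scaled to transcript length, which allows this comparison between genes.

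The controls themselves differed between time points for the genes that responded at 2 h, a comparison chosen after the values were seen. The 24 h control exceeded the 2 h control by 2.03-fold for Dusp1 and 1.85-fold for Dusp4, beside 1.30-fold for Dusp6 and 1.08-fold for Dusp5. Over all 12760 features measured at all 3 times, 1.6% were at least 1.5-fold higher in the 24 h than in the 2 h control, against 2 of the 10 members. Against the 7 d control, the 24 h control was 2.41-fold higher for Dusp4, 1.94-fold for Dusp1, 1.78-fold for Dusp5 and 1.33-fold for Dusp6. In this comparison 3 members and 2.17% of features were past the limit. The Dusp4 value compares rows of unlike locus length, the 7 d row being the longer. The median feature differed by 1.01- and 1.02-fold in these comparisons. Of 6 immediate-early genes measured at all times, 4 (Fos, Junb, Arc and Nr4a1) were also past the limit between the 24 h and 2 h controls. The smaller 24 h ratios of Dusp1 and Dusp4 thus combined a lower cocaine value with a higher control value. Over the whole series, 0 members had all 3 cocaine values above all 3 control values. That pattern was found in 3.39% of features, so the count of 0 does not set the members apart. The cause of the differences between control groups was not tested.

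For each gene past the limit at 2 h, the 3 features with the most similar pattern were found by Euclidean distance over the 3 log2 ratios, among 12760 features measured at every time point. Nearest to Dusp6 were Irs2, an insulin receptor substrate (distance 0.039), Spry4, an inhibitor of receptor tyrosine kinase signaling to ERK (0.111), and Calhm2 (0.22). Spry4 had 1.36 FPKM in the control and 3.03 after cocaine at 2 h, followed by 1.64 and 2.44 at 24 h and by 1.17 and 1.53 at 7 d. Nearest to Dusp1 were Nr4a1, an activity-induced nuclear receptor (0.29), Dusp4 (0.447) and Gm15148 (0.466). Nr4a1 had 8.05 and 36.7 FPKM at 2 h, followed by 15.4 and 25.0 at 24 h and by 8.47 and 12.9 at 7 d. Dusp5 lay nearest to Gm15432 (0.163), Npas4, an activity-dependent transcription factor of neurons (0.20), and Trib1, a pseudokinase (0.208). For Dusp4 these were Mir6340 (0.278), Gm15148 (0.286) and Rasl11a (0.419).

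Most of the MAPK cascade lay within the 1.5-fold limit, as did most features. Of all features 2.23%, 1.51% and 1.33% were higher at 2 h, 24 h and 7 d. Counts of 0 therefore do not set the lists below apart. Among 13 MAP kinases 11 were measured, and 0 passed the limit at any time point. Mapk3, encoding ERK1, had 81.5 FPKM in the control and 93.6 after cocaine at 2 h. All 7 MAP kinase kinases were measured, and Map2k3, an activator of p38, was past the limit at 2 h, with 3.12 FPKM in the control and 5.07 after cocaine. It was within the limit at 24 h (3.04 and 3.73 FPKM) and 7 d (2.89 and 3.08). None of 17 upstream members of the ERK cascade passed the limit at any time point, their ratios running from 0.942 (Araf) to 1.26 (Ksr1) at 2 h. None of 14 transcription factors and kinases listed as driven by ERK did so either. The highest of them at 2 h was Srf, which binds CArG boxes, with 9.92 and 13.8 FPKM (1.39-fold). The study's list of changed MAPK pathway genes held Mknk2 and Rps6ka2 at 2 h, both among these 14. Their log2 ratios at 2 h were 0.448 and 0.388, within the limit used here. That list also held p38 at 2 h, without naming the gene. A place within the limit is therefore not a finding of no change. Elk1, Elk4 and Map2k7 stood on rows merged with another gene.

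Other members of the dual-specificity group were taken as a list that also holds proteins with other roles, such as the RNA phosphatase Dusp11 and the catalytically inactive Styx and Styxl1. Of these 16 genes, 9 were measured at 2 h and 10 at 24 h and 7 d, and 0 passed the limit, beside background shares of 2.23%, 1.51% and 1.33% higher, so these counts do not set the list apart. Dusp12 (at 2 h and 24 h) and Dusp19 stood on rows merged with a neighbouring gene. Ratios over the list at 2 h ran from 0.818 (Dusp23) to 1.24 (Dusp18), and its median log2 ratios were -0.03, 0.03 and -0.10. Dusp2, a nuclear inducible phosphatase related to Dusp1 and Dusp4, was under the minimum, with 0.613 FPKM in the control and 0.374 after cocaine at 2 h. Of 3 tyrosine phosphatases that act on MAP kinases, 2 were measured and 0 passed the limit. Ptpn5, the striatal-enriched phosphatase of ERK, had 43.5 and 38.4 FPKM at 2 h.

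The immediate-early genes Fos, Fosb, Junb, Egr1, Egr2, Arc and Nr4a1, transcription factors and a synaptic protein, are known to be induced by neuronal activity. All 7 were higher at 2 h, 6 of 7 at 24 h and 4 of 6 measured at 7 d. Fosb was the gene within the limit at 24 h, and Fos, Egr1, Arc and Nr4a1 were those higher at 7 d. The median log2 ratios of the list were 2.44, 0.995 and 0.687. At the same times 4, 1 and 2 of the phosphatases were higher, and 2.23%, 1.51% and 1.33% of all features. Arc had 5.59 FPKM in the control and 77.8 after cocaine at 2 h, followed by 23.2 and 54.1 at 24 h and by 6.47 and 21.6 at 7 d. At 2 h the Dusp1 log2 ratio of 2.05 lay inside the range of this list, from 1.23 (Fosb) to 3.80 (Arc), as did those of Dusp4 (1.90) and Dusp5 (1.35), while Dusp6 (1.20) lay just under it.

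Motif matches were found in members past the fold limit and in members within it. A window of 250 bases before to 50 after the start site was held for 9 of the 10 members, all but Dusp4, and was searched on both strands. A CRE was found in 2 of 9, beside 1.88% of 27025 promoters: at position -143 in Dusp1 and at -107 and -63 in Dusp8, whose RNA stayed within 1.5-fold. The start sites used for Dusp3, Dusp7, Dusp8, Dusp14 and Dusp16 lie inside the spans of these genes, which reach further upstream in RefSeq. The CRE core, which overlaps every full CRE, was found in 4 of 9 (Dusp1, Dusp5, Dusp8 and Dusp16), beside 21% of promoters. CArG boxes were found in Dusp5 alone, at -82 and -72, beside 1.57% of promoters, and the E-box in Dusp1 alone, at -126, beside 7.24%. The AP-1 site (TGACTCA or TGAGTCA, 5.17%), the TATA box (TATAAA, 14.2%) and the Egr site (GCGGGGGCG, 2.92%) were found in 0 of 9. The members' windows had a median GC content of 68.7%, against 52.7% over all promoters. A match describes the letters of the window and was not tested as a binding site.

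**Figure D4:**
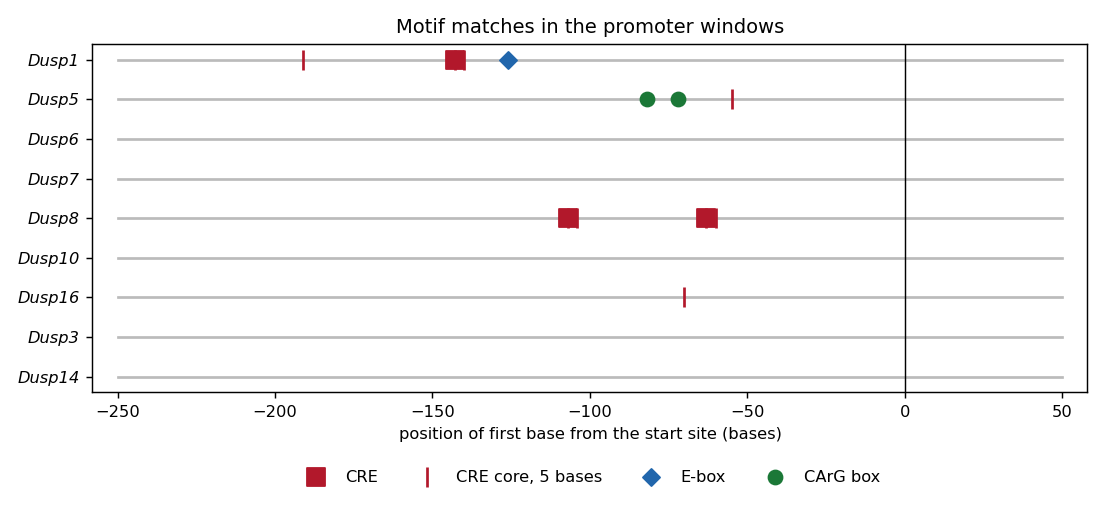
Motif matches in the promoter windows of 9 phosphatases (rows), by position of the first base relative to the start site (horizontal axis, bases; vertical line at the start). Red squares mark CREs, red ticks CRE cores of 5 bases, the blue diamond an E-box and green circles CArG boxes; Dusp1 and Dusp8 share the CRE, and Dusp6, Dusp7, Dusp10, Dusp3 and Dusp14 have no mark.

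The tissue label was checked with marker genes. Excitatory neuron markers of cortex were abundant in all groups, with a summed FPKM of 1477 in the control and 1592 after cocaine at 2 h, and 0 of 5 passed the limit at any time point. The lists for inhibitory neurons, astrocytes, oligodendrocytes, microglia and endothelial cells had 0 members past the limit at any time point. With 2.23%, 1.51% and 1.33% of all features higher at 2 h, 24 h and 7 d, counts of 0 do not set these lists apart. Of 3 olfactory bulb markers only Doc2g was measured, on a row merged with another gene, and that list gives no check. Of 5 red blood cell genes, 4 were higher at 2 h (Hbb-bt, Hbb-bs, Hba-a1 and Hba-a2), beside 2.23% of all features. This was the time of the largest phosphatase ratios. The 5 genes summed to 323 FPKM in the control and 504 after cocaine at 2 h. The sums were 458 and 504 at 24 h and 452 and 529 at 7 d. Ttr, the defining transcript of choroid plexus, had 1.90 FPKM in the control and 0.461 after cocaine at 2 h. Its later pairs were 1.80 and 1.10 (24 h) and 0.284 and 6.54 (7 d). Kcnj13, the other measured gene of the choroid plexus list, did not share these swings and stayed within the limit throughout. In time order its log2 ratios were 0.32, 0.07 and 0.09, beside -2.04, -0.71 and 4.53 for Ttr. Kl, Folr1 and Clic6 of that list were under the minimum throughout. Of the striatal list, Adora2a was higher at 7 d (0.805 and 1.35 FPKM), 1 of 4 measured genes, beside 1.33% of all features. The part of blood, choroid plexus or striatal tissue in the phosphatase ratios was not tested.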

How the data were processed

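PFC RNA was measured by RNA-seq in 12 libraries, 2 per group, although the label protocol speaks of 6. Per the study's methods and the submitters' processing notes, reads were trimmed, aligned with TopHat2, restricted to unique matches and compared with the Cufflinks package (Cuffdiff) at each time point. The notes name TopHat2 2.0.12, Cufflinks 2.2.1, Trimmomatic 0.32 and GRCm38, where the methods name an earlier Cufflinks release, cutadapt and mm9. Read length (75 or 100 nt) differs between labels and methods. File loci lay on GRCm38, since 99.8% of 86992 loci overlapped the RefSeq gene of the same name.

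The authors deposited FPKM values, 1 per group, pooled over both libraries. Further columns hold the authors' log2 fold changes, test statistics, p-values and q-values and were not used. File headers name the groups ambiguously; the first FPKM column was taken as control, and its order against the second was the same as in the supplementary saline and cocaine columns for 453 of 456 genes at 2 h, 14 of 14 at 24 h and 527 of 530 at 7 d.

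Cocaine over control ratios were computed without a pseudocount in Python 3.11.15 (pandas 2.3.3, numpy 2.4.6) for features whose mean FPKM reached 1 and whose values were both above 0. For a name on several rows the longest locus was used, and among loci of equal length the row with the higher mean FPKM. The latter rule chose the Dusp4 row at 24 h. With 1 value per group no test was run. The steps were tested on simulated data. All 10 members were named, with the 3 features nearest to each member past 1.5-fold at 2 h and every list member past 1.5-fold; other list genes given with values were named after their values were seen. The members and lists were chosen with earlier results of these data known. Alternatives covered the fold limit, pseudocount, minimum FPKM, choice of row, centring and transcript length.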

Additional observations from a re-analysis of the deposited data

How the results depend on the processing

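The 2 h count of 4 members higher held at fold limits of 5:4 and 2, with either pseudocount, under each centring and with the row of the highest mean FPKM; with a mean FPKM of at least 5 it was 2, because Dusp4 and Dusp5 fell under that minimum. The 24 h count of 1 became 4 at a limit of 5:4 (4.3% of features higher), and 0 at a limit of 2, with a pseudocount of 1 FPKM or with a mean FPKM of at least 5. The 7 d count of 2 became 4 at a limit of 5:4 (5.52% of features), 0 at a limit of 2, and 1 with a pseudocount of 0.1 or 1 FPKM or a mean FPKM of at least 5, Dusp5 being the member lost. Of 98 recomputed counts and medians 88 stayed within the tolerance (counts within 1.5 times, log2 medians within 0.1) and 10 moved. Of 317 ratios of single members 0 reversed, 6 fell below the limit and 5 passed it. All 5 passed because the limit itself was lowered to 5:4. The fold limit, minimum FPKM and choice of row left each member's ratio unchanged, and a pseudocount cannot change its sign. Only the centrings could reverse a ratio, so the count of 0 reversed says little about the other alternatives. Leaving out the row marked as failed, an alternative chosen after seeing the data, changed no count of members higher or lower.

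No paired analysis was possible because the deposited values are pooled over both libraries of a group; leaving out a library was not possible either. The tables give neither the depth nor an SD of these FPKM values.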
